A study of Mus musculus with 6 samples.

Results

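The transcription factor genes followed here, 7 in number, are known from dendritic cell development: Batf3, Tcf4, Zbtb46, Id2, Bcl6, Prdm1 and Relb. They were measured in Tot2 cells, a mouse myeloid progenitor line established from an Irf8 knockout animal. The genes were taken by name, and their probes were found by the RefSeq accession on the array. All 7 were matched, by 10 probes of 1 spot each, among 20263 genes matched in all, and all 7 were among the 13247 genes tested. Every group carried the Irf8 knockout background and a retrovirus of the MSCV type: control cells carried the empty MSCV-puro vector, the second group MSCV-IRF8FLAG and the third MSCV-KLF4FLAG. All groups were grown in 20% fetal bovine serum with GM-CSF, a myeloid growth factor, at 5.0 ng/ml, transduced with 4 µg/ml polybrene, put under 2 µg/ml puromycin from 48 hr and harvested on day 4. The design text calls the transduced cells monocyte-like and counts 2 independent experiments, so each group has 2 one-colour arrays, and replicate 1 and replicate 2 follow both the experiment and the slide. Tot2 is a single line carrying transgenes under a retroviral promoter, and these arrays give the mean of all cells in a culture, in which fewer cells of a type and less RNA per cell cannot be told apart.

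Dendritic cells take up antigen and present it to T cells, and they come as conventional type 1 cells, conventional type 2 cells and plasmacytoid cells. Batf3 and Id2 are needed for type 1 cells, Tcf4 for plasmacytoid cells, and Zbtb46 marks the conventional lineage. Bcl6 and Prdm1 are zinc finger repressors best known from B cells and also active in myeloid cells, and Relb is a subunit of NF-kB used in the alternative pathway and in dendritic cell maturation. IRF8 itself is a transcription factor needed for type 1 dendritic cells and monocytes, and KLF4 acts in monocytes and in a part of the type 2 lineage.

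Values are log2 of the background-subtracted spot intensity relative to the 75th percentile of the same array, so that 0 marks that percentile, and a probe counts as detected where the scanner software called it well above background. The share of probes well above background was 47.1% to 56.8% by array, and intensity at the 75th percentile lay between 362 and 784. Only 2 arrays per group limit the precision, so differences were tested with limma, which borrows spread from all genes, with Benjamini-Hochberg adjustment over 13247 genes and a threshold of 0.05. Every error printed after ± is a standard error on the log2 scale with n = 2 arrays per group. Mpo, the myeloperoxidase gene of the progenitor and granulocyte stage, was well above background on all 6 arrays, whereas the stem cell factor receptor gene Kit was not on any. The Irf8 probe read 0.75 and 0.90 on control arrays, 3.21 and 3.33 on arrays labelled IRF8 and 2.46 and 2.47 on arrays labelled KLF4. The Klf4 probe read -1.37 and -1.02 on control arrays, 4.73 and 4.88 on arrays labelled IRF8 and -1.28 and -1.01 on arrays labelled KLF4. It was therefore not higher on the arrays labelled KLF4 (log2 difference 0.04 ± 0.17, limma adjusted p = 0.878), no source read for this work says where on the transcript the probe lies, and groups therefore carry the names of their labels.

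IRF8-labelled cells had higher signal of 6 of the 7 factors than control, Batf3, Zbtb46, Id2, Bcl6, Prdm1 and Relb, and lower signal of Tcf4. KLF4-labelled cells had higher signal of Batf3, Bcl6 and Relb and lower signal of Tcf4 and Id2, while Zbtb46 and Prdm1 did not pass the test. Between the transduced groups, Batf3, Zbtb46, Id2, Bcl6 and Prdm1 were higher in IRF8-labelled cells, and Tcf4 and Relb did not pass. Prdm1, detected in IRF8-labelled cells alone, was tested only through that group and could hardly have been called lower there. Over all genes tested, 61.1% passed in IRF8-labelled against control cells, 26.2% higher and 35.0% lower. In KLF4-labelled against control cells 16.1% passed, 10.4% higher and 5.72% lower, so that 64.5% of calls were higher (87.8% with median and 89.4% with spike-in scaling, and 37.4% with the replicate block). In IRF8-labelled against KLF4-labelled cells 50.3% passed, 22.7% higher and 27.6% lower. The median log2 difference of the 7 factors was 2.34, 0.11 and 2.60 in these comparisons, beside -0.11, -0.12 and -0.03 over all genes. The 5 calls in KLF4-labelled cells became 3 when the spike-in controls set the scale, without control replicate 1 or without KLF4 replicate 2. The groups being compared did not overlap for any factor in the comparisons with control, nor for any but Relb between the transduced groups. The share of all genes without overlap was 79.9%, 61.0% and 75.2%. Both comparisons with control share the same 2 control arrays.

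**Figure D1:**
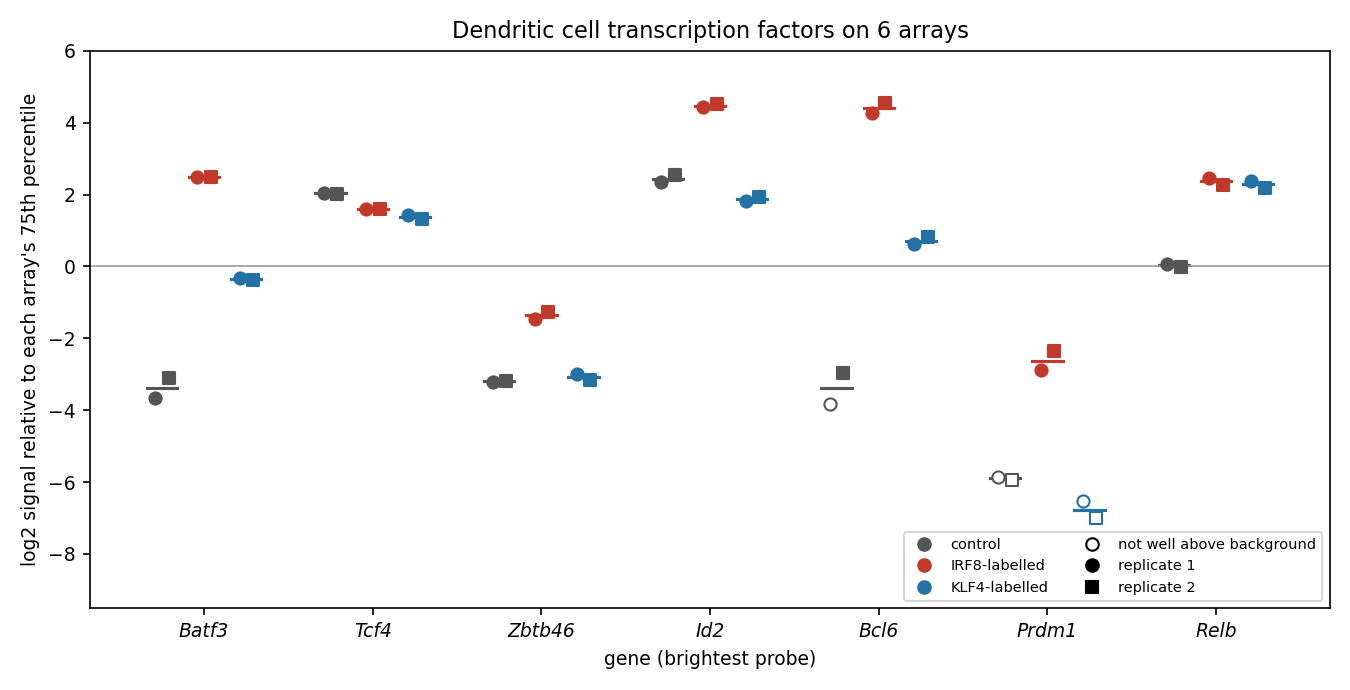
Log2 signal of the 7 factors relative to the 75th percentile of each array (vertical axis), for the brightest probe of each gene (horizontal axis). Each point is an array, circles for replicate 1 and squares for replicate 2, open where the probe was not well above background, and short lines are group means. IRF8-labelled arrays lie above both other groups for Batf3, Zbtb46, Id2, Bcl6 and Prdm1, and control arrays lie above both transduced groups for Tcf4.

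The stretches from 250 bases before to 50 bases after an annotated start (RefSeq, GRCm38.p6) were read for the factors that were higher in IRF8-labelled cells, and 5 of these 6 were matched in the table. For this, 7 motifs were searched on both strands of these stretches. Shown are 4 of the 6 stretches: that of Batf3 for its GC boxes, those of Zbtb46 and Prdm1 for the motif of AP-1, and 1 of Bcl6 for the motif of ETS and IRF factors. Capitals mark the matches, positions count from the start, and a match describes letters, not a bound site.
Batf3, chr1:191098164-191098463, plus strand: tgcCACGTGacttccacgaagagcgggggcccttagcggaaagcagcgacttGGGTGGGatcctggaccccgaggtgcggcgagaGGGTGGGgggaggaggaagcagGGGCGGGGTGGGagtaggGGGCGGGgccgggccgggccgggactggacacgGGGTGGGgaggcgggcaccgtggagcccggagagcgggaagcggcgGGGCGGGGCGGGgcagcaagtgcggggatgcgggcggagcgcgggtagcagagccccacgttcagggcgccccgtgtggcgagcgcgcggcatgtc
Zbtb46, chr2:181424339-181424638, minus strand: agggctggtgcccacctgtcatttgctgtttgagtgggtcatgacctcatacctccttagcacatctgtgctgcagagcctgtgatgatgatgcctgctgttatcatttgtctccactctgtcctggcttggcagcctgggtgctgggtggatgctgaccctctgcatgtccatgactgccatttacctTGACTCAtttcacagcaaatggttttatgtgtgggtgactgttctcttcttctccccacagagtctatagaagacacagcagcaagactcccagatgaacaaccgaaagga
Bcl6, chr16:23981234-23981533, minus strand: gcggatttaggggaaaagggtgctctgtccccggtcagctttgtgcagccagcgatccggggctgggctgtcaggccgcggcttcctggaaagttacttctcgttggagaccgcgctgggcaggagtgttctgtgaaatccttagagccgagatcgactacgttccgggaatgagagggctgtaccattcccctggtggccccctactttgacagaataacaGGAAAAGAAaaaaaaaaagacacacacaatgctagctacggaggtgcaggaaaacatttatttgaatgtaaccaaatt
Prdm1, chr10:44458699-44458998, minus strand: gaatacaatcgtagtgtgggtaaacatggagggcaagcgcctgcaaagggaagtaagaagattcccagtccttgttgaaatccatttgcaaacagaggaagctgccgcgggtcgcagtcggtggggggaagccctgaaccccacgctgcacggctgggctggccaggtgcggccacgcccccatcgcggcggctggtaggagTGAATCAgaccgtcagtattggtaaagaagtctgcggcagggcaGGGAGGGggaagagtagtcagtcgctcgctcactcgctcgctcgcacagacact

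The Batf3 stretch had a G and C content of 75.67%, against a median of 52.67% over 32851 promoters of the same length. It held 8 matches to the GC box of KLF and SP proteins, GGGNGGG, some of them overlapping, and 1 to the first E box, CACGTG. The GC box occurred in 48.1% of all promoters and this E box in 7.15%. The Zbtb46 stretch held the AP-1 motif, TGANTCA, from -61 to -55, and the Prdm1 stretch held it from -48 to -42, along with 1 GC box. The bases just before the annotated Zbtb46 start read as a pyrimidine tract ending in cag, as at the end of an intron. Whether that stretch is a promoter was not tested. The AP-1 motif occurred in 7.81% of promoters.

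The Bcl6 stretch shown, 1 of 2 in the table, held a match to the composite element of ETS and IRF factors, GGAANNGAA, from -28 to -20, a motif present in 8.24% of promoters. The other Bcl6 stretch (chr16:23988803-23989102) held 1 GC box and 1 match to the first E box. The Id2 stretch (chr12:25096043-25096342) held 2 GC boxes and 1 second E box, CAGCTG, present in 16.3% of promoters. Neither the interferon response element, GAAANNGAA, in 8.56% of promoters, nor the NF-kB motif, GGGANTTTC, in 1.11%, occurred in these windows.

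Batf3, a short basic leucine zipper protein that binds DNA as a partner of JUN and IRF proteins, rose in both transduced groups and was highest in IRF8-labelled cells. Its probe (A_51_P419286) read -3.67 and -3.10 on control arrays, 2.50 and 2.50 on IRF8-labelled arrays and -0.32 and -0.37 on KLF4-labelled arrays. The 3 groups were well apart, and the control arrays differed most from each other. Batf3 was 59.2-fold higher in IRF8-labelled than in control cells (log2 5.89 ± 0.20, limma adjusted p = 3.50e-05), with 6.17 on the first slide and 5.60 on the second. It was 8.25-fold higher in KLF4-labelled than in control cells (log2 3.05 ± 0.20, limma adjusted p = 7.68e-04), with 3.35 and 2.74 by slide. The direct difference was 7.17-fold in favour of IRF8-labelled cells (log2 2.84 ± 0.20, limma adjusted p = 5.07e-04), so the order was IRF8-labelled, KLF4-labelled and control, with every neighbour separated by the test. With normexp the log2 differences from control were 4.70 and 2.06.

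Most genes of the partner list rose in IRF8-labelled cells, and somewhat fewer, though still most, in KLF4-labelled cells. Over all genes tested, 26.2% and 10.4% were higher than control in these groups. Of 11 AP-1 and IRF genes, 9 rose and 1 fell in IRF8-labelled cells, and 6 rose in KLF4-labelled cells, with median log2 differences of 2.00 and 1.11 (1.70 and 1.04 with Irf4, undetected in control, at its bound). Jun, the founding JUN gene, rose in IRF8-labelled cells (log2 0.87, limma adjusted p = 0.00347, 0.103 with spike-in scaling) and differed by -0.066 in KLF4-labelled cells (limma adjusted p = 0.752). Fos, a partner of JUN proteins in AP-1, read -0.77 and -0.56 on control arrays, 2.79 and 3.01 on IRF8-labelled arrays and 1.91 and 2.15 on KLF4-labelled arrays. Its rises were 11.8-fold and 6.46-fold (limma adjusted p = 6.16e-05 and 4.42e-04). Its relatives Fosl2 and Fosb rose 7.35-fold and 7.07-fold in IRF8-labelled cells and 5.29-fold and 4.11-fold in KLF4-labelled cells (SE at most 0.11, limma adjusted p at most 2.22e-04). Irf4, the IRF of type 2 dendritic cells and a partner of BATF proteins, was not well above background on control arrays and was at least 2.52-fold above control in IRF8-labelled and at least 2.05-fold in KLF4-labelled cells (limma adjusted p = 9.12e-04 and 0.00549, 0.0808 and 0.234 with normexp background correction). An "at least" fold sets the bright group against a floor on each dim array. This floor is the array's lowest signal called well above background, or the probe's own signal where that is higher. It is not a strict detection limit. On control replicate 1 it was -4.07, and the Bcl6 probe at -3.83 was not called there, so these folds are approximate bounds. The Irf8 probe, whose signal the vector itself can supply in IRF8-labelled cells, rose 5.45-fold and 3.12-fold (limma adjusted p = 6.05e-05 and 6.22e-04). Its direct difference of 0.81 ± 0.10 passed with limma adjusted p = 0.00254 but not with spike-in scaling (0.213). KLF4-labelled and control cells carry the Irf8 knockout and no IRF8 vector. The probe's signal there therefore cannot be read as working Irf8, and its source was not tested. Between the transduced groups 8 of the 11 were higher in IRF8-labelled cells and 1 lower, and with spike-in scaling 1 higher. Fosl1, the member that fell in IRF8-labelled cells (-0.46 ± 0.14), lost the call without any 1 array but control replicate 1 (highest adjusted p = 0.179). Batf, the closest relative of Batf3, differed from control by 0.06 and -0.12 and did not pass (limma adjusted p = 0.573 and 0.382). Jun, Fosl1 and Batf were picked out after their values were seen, as were the genes named below beside counts of 5 or fewer.

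Id2 and Tcf4 act against each other: Tcf4 encodes the E protein E2-2, which binds DNA, and Id2 is a helix-loop-helix protein without a DNA-binding part that holds E proteins off DNA. In IRF8-labelled cells Id2 rose and Tcf4 fell, and in KLF4-labelled cells both were lower than in control. The Id2 probe (A_52_P240542) read 2.35 and 2.54 on control arrays, 4.43 and 4.52 on IRF8-labelled arrays and 1.82 and 1.94 on KLF4-labelled arrays. The IRF8-labelled arrays were the high ones, and the other groups lay close to each other without overlap. Id2 was 4.09-fold higher in IRF8-labelled than in control cells (log2 2.03 ± 0.11, limma adjusted p = 1.28e-04, 2.08 and 1.98 by slide) and 6.05-fold higher than in KLF4-labelled cells (log2 2.60 ± 0.11, limma adjusted p = 1.74e-04). The fall of Id2 in KLF4-labelled cells was 1.48-fold (log2 -0.57 ± 0.11, limma adjusted p = 0.0295, -0.53 and -0.60 by slide). Leaving out any 1 of the 6 arrays ended that call (adjusted p = 0.0569 to 0.149), as did median scaling (0.149), spike-in scaling (0.797) and normexp (0.0946).

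The brighter Tcf4 probe (A_55_P2054420) read 2.05 and 2.02 on control arrays, 1.58 and 1.60 on IRF8-labelled arrays and 1.43 and 1.32 on KLF4-labelled arrays. Control arrays were highest and the spread within groups was small. Tcf4 was 1.36-fold lower in IRF8-labelled than in control cells (log2 -0.44 ± 0.08, limma adjusted p = 0.00779) and 1.58-fold lower in KLF4-labelled cells (log2 -0.66 ± 0.08, limma adjusted p = 0.00845). With spike-in scaling these p were 0.207 and 0.548, and the fall in KLF4-labelled cells was also lost without control replicate 1 (0.0515) or KLF4 replicate 2 (0.0691). The transduced groups differed by 0.22 ± 0.08 (95% interval 0.00016 to 0.44), which did not pass (limma adjusted p = 0.0881) but did with the replicate number as a block (0.0284). A second, dim Tcf4 probe (A_55_P2181419) read -3.55 and -3.62 on control arrays, -4.74 and -4.68 on IRF8-labelled arrays, of which 1 was well above background, and -4.08 and -4.45 on KLF4-labelled arrays. It fell too in both comparisons with control (log2 -1.13 and -0.68, limma adjusted p over probes = 0.00185 and 0.0391). Its direct difference had the opposite sign to that of the brighter probe (log2 -0.45, limma adjusted p over probes = 0.0513), so the order of the transduced groups in Tcf4 depends on the probe.

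Of the other E and Id protein genes, 4 of 5 were tested, and Id3 and Tcf3 changed. In IRF8-labelled cells 25% rose and 25% fell, beside 26.2% and 35.0% of all genes tested. Id3, a relative of Id2, read -3.61 and -3.05 on control arrays, 1.89 and 1.64 on IRF8-labelled arrays and -1.90 and -2.27 on KLF4-labelled arrays. It rose 34.2-fold in IRF8-labelled cells (log2 5.10 ± 0.24, limma adjusted p = 9.00e-05) and 2.37-fold in KLF4-labelled cells (limma adjusted p = 0.0297). The latter call was lost without any 1 array but control replicate 2 (highest adjusted p = 0.138) and with normexp (0.142). Tcf3, which encodes the E proteins E12 and E47, fell 1.57-fold in IRF8-labelled cells (log2 -0.65 ± 0.09, limma adjusted p = 0.00217, 0.0831 with spike-in scaling) and differed by -0.29 ± 0.09 in KLF4-labelled cells (limma adjusted p = 0.0848), where it passed with the replicate block. Tcf12 and Id1 differed from control by -0.28 and -0.17 in IRF8-labelled cells (limma adjusted p = 0.240 and 0.485) and passed there with the block, and Id4 was not well above background on any array. Id1 read 2.68 and 3.04 on control, 2.52 and 2.86 on IRF8-labelled and 2.73 and 2.98 on KLF4-labelled arrays, so that the groups overlapped.

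Zbtb46, a zinc finger repressor used as a mark of conventional dendritic cells and their committed precursors, rose in IRF8-labelled cells, and no rise passed the test in KLF4-labelled cells. Its brighter probe (A_52_P241508) read -3.22 and -3.18 on control arrays, -1.47 and -1.26 on IRF8-labelled arrays and -3.00 and -3.17 on KLF4-labelled arrays. Control and KLF4-labelled arrays lay next to each other and the IRF8-labelled arrays above both. Zbtb46 was 3.57-fold higher in IRF8-labelled than in control cells (log2 1.84 ± 0.11, limma adjusted p = 1.96e-04, 1.75 and 1.92 by slide) and 3.30-fold higher than in KLF4-labelled cells (log2 1.72 ± 0.11, limma adjusted p = 4.63e-04). KLF4-labelled and control cells differed by 0.11 ± 0.11 (95% interval -0.18 to 0.41, limma adjusted p = 0.521). The second probe (A_52_P214042) was well above background on the IRF8-labelled arrays alone, at -2.57 and -2.09, and read -6.20 and -7.16 on control and -6.77 and -5.91 on KLF4-labelled arrays. That makes it at least 4.69-fold higher than in control and at least 5.86-fold higher than in KLF4-labelled cells (limma adjusted p over probes = 8.28e-04 and 0.00179). The log2 differences of IRF8-labelled cells from control and KLF4-labelled cells were 1.04 and 1.05 with normexp and 3.097 and 2.87 with the mean of both probes.

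**Figure D2:**
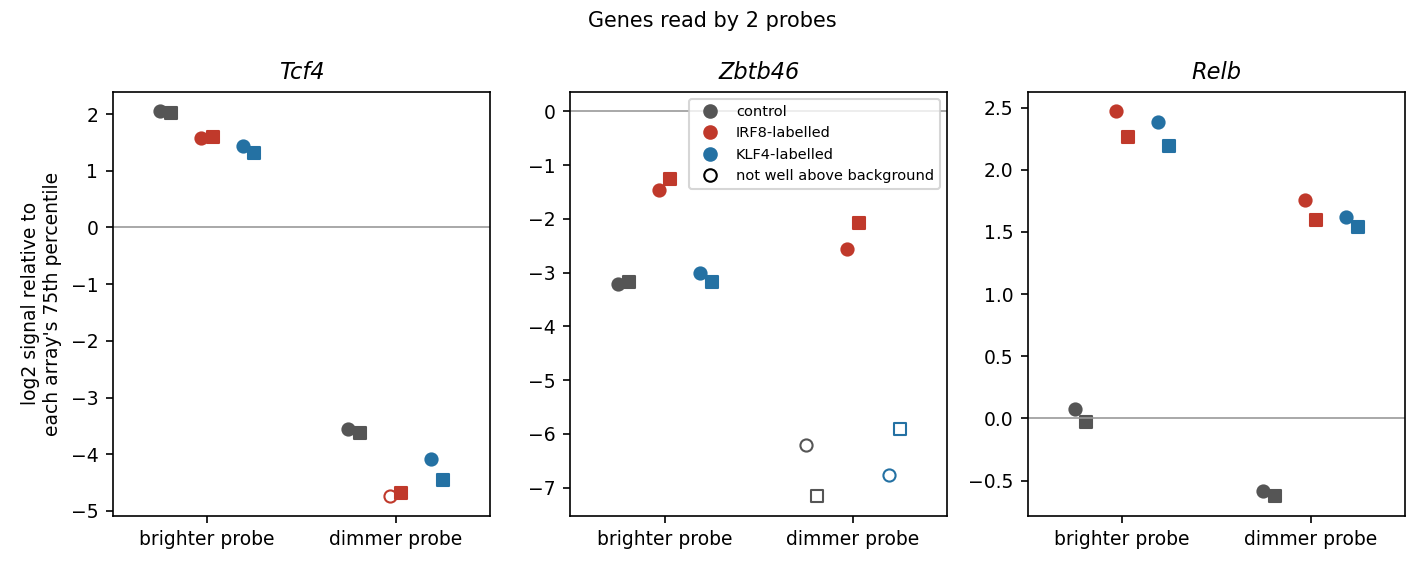
Log2 signal relative to the 75th percentile of each array for the 3 factors read by 2 probes, with circles for replicate 1, squares for replicate 2 and open symbols where a probe was not well above background. The probes of Relb and of Zbtb46 place the groups alike where they are detected, while the dimmer Tcf4 probe puts IRF8-labelled arrays below KLF4-labelled ones and the brighter probe puts them above.

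Bcl6, a repressor of germinal centre B cells that also holds back inflammatory genes in macrophages, had the largest log2 difference of the 7 factors against control in both transduced groups. Its probe (A_52_P161495) read -3.83 and -2.96 on control arrays, of which the second was well above background, 4.28 and 4.53 on IRF8-labelled arrays and 0.62 and 0.81 on KLF4-labelled arrays. The groups were far apart, in the order IRF8-labelled, KLF4-labelled and control. Bcl6 was 224-fold higher in IRF8-labelled than in control cells (log2 7.80 ± 0.30, limma adjusted p = 5.56e-05, 8.11 and 7.49 by slide) and 17.3-fold higher in KLF4-labelled than in control cells (log2 4.11 ± 0.30, limma adjusted p = 0.00119, 4.46 and 3.77 by slide). The transduced groups differed 12.9-fold (log2 3.69 ± 0.30, limma adjusted p = 8.12e-04). Both folds against control rest on a control group near background, and with normexp the log2 differences were 6.40 and 2.80.

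Prdm1, which encodes the repressor Blimp-1 of plasma cells and of myeloid differentiation, was detected on the IRF8-labelled arrays and on no others. Its probe (A_55_P2027022) read -2.88 and -2.36 there, -5.85 and -5.94 on control arrays and -6.52 and -7.00 on KLF4-labelled arrays. Prdm1 was at least 3.83-fold higher in IRF8-labelled than in control cells (fitted log2 3.28 ± 0.24, limma adjusted p = 3.07e-04) and at least 4.79-fold higher than in KLF4-labelled cells (fitted log2 4.14 ± 0.24, limma adjusted p = 3.30e-04). Control and KLF4-labelled cells were both below background, so no fold is given between them (limma adjusted p = 0.0719). With normexp the fitted differences of IRF8-labelled cells were 0.74 and 1.19 (limma adjusted p = 0.0491 and 0.0136). Bcl6 and Prdm1, which repress each other's gene in B cells, were thus both higher in IRF8-labelled cells.

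Genes that serve or answer to these repressors moved in both directions, as did all genes tested (26.2% higher and 35.0% lower in IRF8-labelled than in control cells). Of 13 corepressor genes, 2 rose and 8 fell in IRF8-labelled cells (5 fell without IRF8 replicate 1; 3 fell and none rose with spike-in scaling), with a median of -0.42. The histone deacetylase genes Hdac7 and Hdac2 fell 3.25-fold and 1.99-fold, and the arginine methyltransferase gene Prmt5, a partner of Blimp-1, fell 2.06-fold (SE at most 0.25, limma adjusted p at most 0.00316). In KLF4-labelled cells no corepressor gene passed limma's adjusted threshold, 3 were lower at an unadjusted p under 0.05, and with the block 1 was higher and 4 lower. In the direct comparison 2 were higher and 6 lower in IRF8-labelled cells; the 6 became 1 without IRF8 replicate 1 or KLF4 replicate 2, 3 without KLF4 replicate 1 and 1 with spike-in scaling.

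Of 16 tested genes reported as targets of Bcl6 or Blimp-1 in B cells, 6 rose and 8 fell in IRF8-labelled cells, and 6 rose in KLF4-labelled cells. After Id3 and Irf4, Cd69 and Cdkn1a had the largest called difference in any of the 3 comparisons, that of Cd69 being -2.78 between the transduced groups. Cd69, an early activation antigen, read 2.05 and 2.06 on control arrays, 0.06 and 0.20 on IRF8-labelled arrays and 2.92 and 2.91 on KLF4-labelled arrays. It fell 3.79-fold in IRF8-labelled cells (log2 -1.92 ± 0.09, limma adjusted p = 8.67e-05) and rose 1.81-fold in KLF4-labelled cells (limma adjusted p = 0.00400, 0.266 with spike-in scaling). Cdkn1a, the cell cycle inhibitor p21, rose 4.45-fold and 1.53-fold (limma adjusted p = 8.17e-05 and 0.0169). The latter call was lost without 3 of the 6 arrays (highest adjusted p = 0.104) and with spike-in scaling (0.679). Both repressors were raised in IRF8-labelled cells while a part of this list rose and a part fell, as also did 26.2% and 35.0% of all genes tested.

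Relb rose in both transduced groups, and no difference between them passed the test. Its brighter probe (A_51_P389751) read 0.08 and -0.03 on control arrays, 2.47 and 2.27 on IRF8-labelled arrays and 2.39 and 2.19 on KLF4-labelled arrays. The transduced groups overlapped and both lay above control. Relb was 5.07-fold higher in IRF8-labelled than in control cells (log2 2.34 ± 0.12, limma adjusted p = 1.20e-04) and 4.81-fold higher in KLF4-labelled cells (log2 2.27 ± 0.12, limma adjusted p = 4.41e-04). Transduced groups differed by 0.08 ± 0.12 (95% interval -0.24 to 0.39, limma adjusted p = 0.631). The second probe (A_55_P2168736) gave 2.28, 2.19 and 0.09 for the same differences.

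The NF-kB pathway around Relb rose in part. Of 22 tested genes, 12 rose and 5 fell in IRF8-labelled cells, the 5 (Nfkbiz, Traf3, Nfkbib, Traf2 and Nfkb1, by -1.07 to -0.35) becoming 2 to 4 without any 1 array and 1 with spike-in scaling or normexp. In KLF4-labelled cells 11 rose, with 6 without KLF4 replicate 1, 7 without KLF4 replicate 2 and 6 with spike-in scaling. The medians were 0.65 and 0.54. The rises were 54.5% and 50% of the list, beside 26.2% and 10.4% of all genes tested. The falls in IRF8-labelled cells were 22.7%, beside 35.0% of all genes tested. Nfkb2, which encodes the p100 protein that is cut to p52, the partner of RelB, rose 2.68-fold in IRF8-labelled cells (log2 1.42 ± 0.12, limma adjusted p = 4.91e-04) and 2.49-fold in KLF4-labelled cells (log2 1.31, limma adjusted p = 0.00262); it was singled out after its values were seen. Traf1, an adaptor of tumour necrosis factor receptors, was not detected on control arrays and rose at least 34.01-fold in IRF8-labelled and at least 23.0-fold in KLF4-labelled cells (limma adjusted p = 1.36e-04 and 6.41e-04). Cd40, the receptor through which T cells activate the alternative pathway in antigen-presenting cells, was not detected on control arrays and rose at least 17.3-fold in IRF8-labelled and at least 1.53-fold in KLF4-labelled cells (limma adjusted p = 1.74e-04 and 0.0123). The latter was lost without either KLF4-labelled array (highest adjusted p = 0.0814) and with normexp (0.433). Nfkbie, an inhibitor of NF-kB, rose 6.94-fold and 3.92-fold (limma adjusted p = 2.36e-05 and 1.72e-04). Tnfrsf11a, the receptor RANK, rose 5.998-fold and 1.91-fold (limma adjusted p = 3.04e-04 and 0.0336, the latter up to 0.125 without 1 array).

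Between the transduced groups IRF8-labelled cells had 5 of the NF-kB genes higher (Cd40, Nfkbie, Tnfrsf11a, Map3k14 and Birc3) and 4 lower, 8 and 6 with the replicate block and 2 and 2 with spike-in scaling. As shares of the list, 22.7% were higher and 18.2% lower, not above the 22.7% and 27.6% of all genes tested. The 4 lower ones, Nfkbia, Nfkbiz, Nfkbib and Traf2, were 2 without IRF8 replicate 1, KLF4 replicate 1 or KLF4 replicate 2. In IRF8-labelled cells Cd40 exceeded its KLF4-labelled level 11.3-fold and Tnfrsf11a 3.14-fold (SE at most 0.36, limma adjusted p = 0.00147 and 0.00202). Traf1 differed by 0.57 ± 0.29 (limma adjusted p = 0.171). Relb, Nfkb2 and Traf1 thus did not differ between the transduced groups past the threshold, and Cd40 did.

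**Figure D3:**
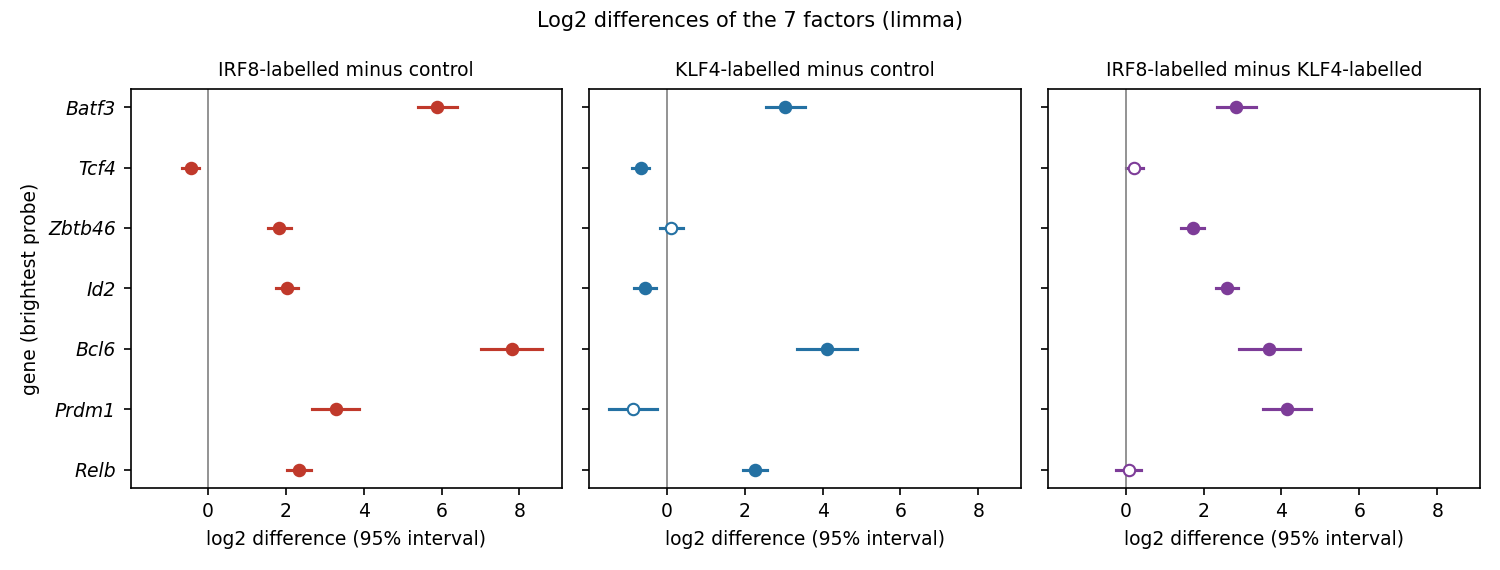
Log2 differences of the 7 factors in the 3 comparisons (horizontal axes, limma, with 95% intervals before adjustment), filled where the adjusted p was below 0.05. Intervals exclude 0 for Zbtb46 and Id2 in IRF8-labelled cells, while the interval of Relb between the transduced groups runs from -0.24 to 0.39.

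Other regulators of the dendritic cell lineages did not move as a block. Of 24 tested, 9 rose, Irf8 and its possible vector signal included, and 10 fell in IRF8-labelled cells, with a median of 0.18. The shares over all genes tested were 26.2% higher and 35.0% lower. In KLF4-labelled cells Irf4, Notch2, Zeb2 and the Irf8 probe, on the knockout background, rose and Bcl11a, Runx1 and Cbfa2t3 fell. These 4 and 3 calls became 2 and 0 with spike-in scaling and 5 and 11 with the block, and the number of falls was 1 without control replicate 2, KLF4 replicate 1 or KLF4 replicate 2. Besides Klf4 and Irf4, Ets1 and Bcl11a had the largest differences. Ets1, an ETS factor of lymphoid cells, fell 11.9-fold in IRF8-labelled cells (log2 -3.57 ± 0.18, limma adjusted p = 1.05e-04), from 1.82 and 1.52 to -1.70 and -2.09, and read 1.22 and 1.13 in KLF4-labelled cells. Bcl11a, a zinc finger factor of plasmacytoid cells, read 1.64 and 2.02 on control arrays, -1.59 and -1.26 on IRF8-labelled arrays and 0.63 and 0.83 on KLF4-labelled arrays. It fell 9.52-fold and 2.14-fold (limma adjusted p = 1.56e-04 and 0.0212, the latter up to 0.115 without 1 array).

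Markers of dendritic cell subsets show which products accompanied the factors. Of 14 type 1 markers, 12 were matched, 7 were tested and 6 rose in IRF8-labelled cells, with a median of 2.36, and all 7 were higher there than in KLF4-labelled cells (4 with spike-in scaling). Over all genes tested, 26.2% and 22.7% were higher in these comparisons. Clec9a and Btla entered the test only through the IRF8-labelled arrays, where they were high, and could hardly have been called lower there. Naaa, a lysosomal amidase, rose 87.7-fold (log2 6.45 ± 0.12, limma adjusted p = 9.81e-06), from 1.70 and 1.69 to 8.30 and 8.001, and read 3.89 and 3.84 in KLF4-labelled cells. Clec9a, the receptor for dead cells on type 1 dendritic cells, was detected on IRF8-labelled arrays alone, at -1.37 and -1.25, at least 9.49-fold above control (limma adjusted p = 1.25e-04). Btla, an inhibitory receptor, was also detected there alone and was at least 5.99-fold above control (limma adjusted p = 7.63e-04), and the small GTPase gene Rab7b rose 5.15-fold (limma adjusted p = 1.49e-04). Xcr1, Cadm1, Tlr3 and Gcsam were not well above background on any array, and Cd8a was on 1 control array alone. In KLF4-labelled cells Naaa rose 4.49-fold (limma adjusted p = 5.00e-04). Wdfy4 fell there (log2 -0.36, limma adjusted p = 0.0434), a call lost without any 1 array (highest adjusted p = 0.190). The defining type 1 marker Xcr1 was thus below background while Batf3 and Id2 were raised.

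Of 11 tested type 2 markers, 7 rose and 2 fell in IRF8-labelled cells, with a median of 0.95. These were 63.6% and 18.2%, beside 26.2% and 35.0% of all genes tested. Cd209a, detected in IRF8-labelled cells alone, entered the test only through that group. Clec10a, a lectin of type 2 cells and macrophages, read -3.57 and -3.40 on control arrays, 5.16 and 5.32 on IRF8-labelled arrays and -1.48 and -1.21 on KLF4-labelled arrays. It rose 423-fold and 4.41-fold (limma adjusted p = 7.77e-06 and 7.30e-04). The lectin genes Clec4a4 and Cd209a were not detected on control arrays and were at least 3.97-fold and 1.89-fold higher in IRF8-labelled cells, whereas Clec12a fell at least 3.23-fold (limma adjusted p = 4.72e-04, 0.00180 and 0.00205). Of these, Cd209a and Clec12a lost the call with normexp (adjusted p = 0.0785 and 0.0797). In KLF4-labelled cells Clec10a, Clec4a4 and Sirpa rose, 3 in number, with 1 without KLF4 replicate 2 and 5 with the block. In the direct comparison 6 were higher in IRF8-labelled cells, 3 without IRF8 replicate 2, and 2 were lower, 1 without KLF4 replicate 2.

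Of 13 tested plasmacytoid markers, 4 rose and 4 fell in IRF8-labelled cells (30.8% each, beside 26.2% and 35.0% of all genes tested), with a median of -0.08. Blnk, a B cell adaptor, was detected on IRF8-labelled arrays alone and was at least 27.6-fold above control (limma adjusted p = 1.04e-05). Irf7, the interferon regulator of plasmacytoid cells, rose 4.47-fold and 4.23-fold in IRF8-labelled and KLF4-labelled cells (limma adjusted p = 2.45e-04 and 0.00101, the latter 0.0879 with normexp), with 1 of 2 control arrays above background. Atp1b1, a sodium pump subunit, and Lair1, an inhibitory collagen receptor, fell 29.0-fold and 7.12-fold in IRF8-labelled cells (limma adjusted p = 8.81e-05 and 1.64e-04). In KLF4-labelled cells 3 passed as higher, Irf7, Tlr7 and Blnk, the last of them below background on both sides, and with normexp 0 passed.

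**Figure D4:**
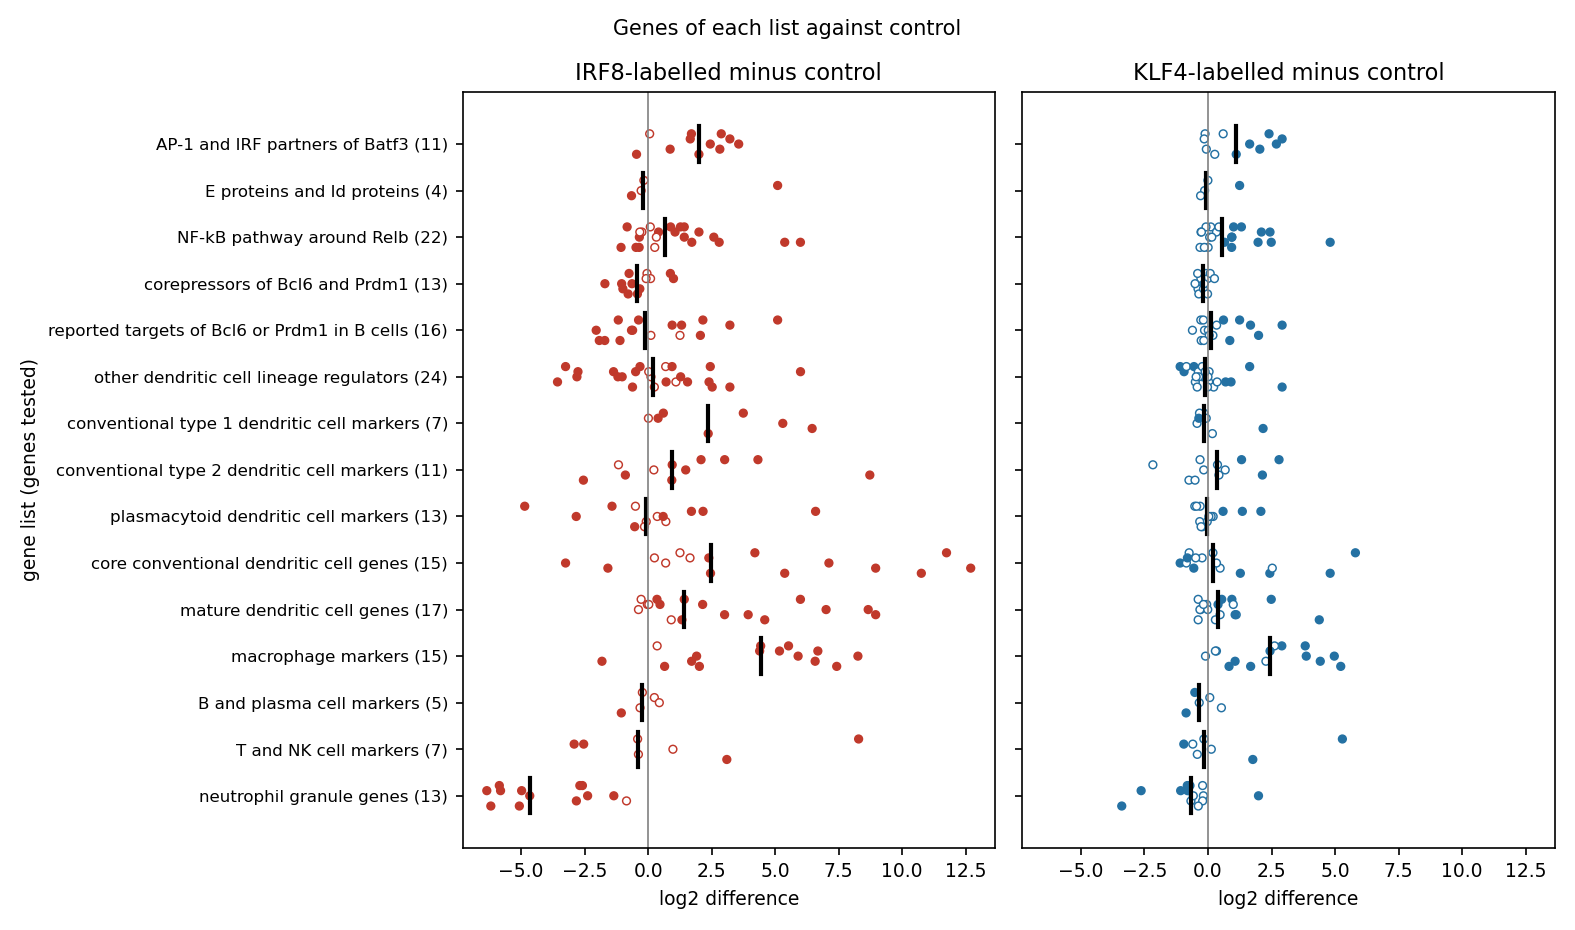
Log2 differences from control of every tested gene of 15 lists, in IRF8-labelled cells on the left and KLF4-labelled cells on the right. Each point is a gene, filled where limma's adjusted p was below 0.05, black bars are list medians, and numbers in parentheses are genes tested. In IRF8-labelled cells the medians of core dendritic, mature dendritic and macrophage genes lie right of 0 at 2.45, 1.42 and 4.43, and that of neutrophil granule genes lies left at -4.66.

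Of 15 tested genes shared by conventional dendritic cells, 9 rose and 2 fell in IRF8-labelled cells, with a median of 2.45, and 10 were higher and 2 lower than in KLF4-labelled cells. The rises were 60% and 66.7% of the list, beside 26.2% and 22.7% of all genes tested. Some of these genes, such as Ccr7, entered the test only through the IRF8-labelled arrays and could hardly have been called lower there. Itgax, the integrin CD11c, was not detected on control arrays, read 5.31 and 5.33 on IRF8-labelled arrays and -0.70 and -0.54 on KLF4-labelled arrays, and rose at least 939-fold in IRF8-labelled and at least 15.3-fold in KLF4-labelled cells (limma adjusted p = 9.90e-06 and 1.61e-04). H2-Ab1 and Cd74, which encode a class II chain and its invariant chain, rose at least 2472-fold and 1724-fold in IRF8-labelled cells (limma adjusted p = 1.36e-04 and 7.77e-06), and Ccr7, which guides dendritic cells to lymph nodes, at least 159.8-fold (limma adjusted p = 1.04e-05). In KLF4-labelled cells Itgax, Cd74, Traf1 and Haao rose, 4 in number, and Bcl11a, Kmo and Spint2 fell, 3 in number. None of these 3 falls kept its call without KLF4 replicate 1, without KLF4 replicate 2 or with spike-in scaling, and with the block 6 genes fell.

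Of 17 tested genes of mature dendritic cells, the state in which Relb is known to act, 12 rose in IRF8-labelled cells, with a median of 1.42, and 6 in KLF4-labelled cells, with 3 without either KLF4-labelled array and 2 with spike-in scaling. The chemokine gene Ccl17 and the maturation antigen gene Cd83 were detected on IRF8-labelled arrays alone and were at least 345.6-fold and at least 26.8-fold above control (limma adjusted p = 9.90e-06 and 1.05e-04). The direct comparison had 9 that were higher in IRF8-labelled cells, 52.9% of the list beside 22.7% of all genes tested. Against control, 70.6% and 35.3% of the list were higher, beside 26.2% and 10.4% of all genes tested. Ccr7, Ccl17 and Cd83 entered the test only through the IRF8-labelled arrays and could hardly have been called lower there. Relb was higher than control in both transduced groups, whereas Ccr7, Ccl17 and Cd83 were detected in IRF8-labelled cells alone. Other genes of the list were, like Relb, higher in both groups. Among them was Cd274 (limma adjusted p = 1.89e-05 and 6.11e-05), which passed between the transduced groups only with the block. Birc3 and Pdcd1lg2 also rose in both, but not in KLF4-labelled cells with spike-in scaling.

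Markers of other cells changed as well. Of 15 tested macrophage markers, 13 rose and 1, C5ar1, fell in IRF8-labelled cells and 10 rose in KLF4-labelled cells, with medians of 4.43 and 2.44 (1.68 in KLF4-labelled cells with the genes undetected in control at their bounds). The rises were 86.7% and 66.7% of the list, beside 26.2% and 10.4% of all genes tested. The fall of C5ar1, detected on 1 control array and on no IRF8-labelled array, was lost with normexp (limma adjusted p = 0.519). The summed linear signal of the 17 matched genes, in units of the 75th percentile, was 27.6 and 28.0 on control arrays, 808 and 678 on IRF8-labelled arrays and 201 and 209 on KLF4-labelled arrays. The scavenger receptor genes Msr1 and Marco rose at least 140.3-fold and 171-fold in IRF8-labelled cells and at least 14.4-fold and 37.4-fold in KLF4-labelled cells (SE at most 0.17, limma adjusted p at most 9.57e-05). Cd163 was well above background on 1 KLF4-labelled array alone and Timd4 on none. Of 13 tested neutrophil granule genes, 12 fell in IRF8-labelled cells (92.3%, beside 35.0% of all genes tested), with a median of -4.66. Their sum over 14 matched genes was 3577 and 2710 on control arrays, 920 and 744 on IRF8-labelled arrays and 2817 and 1894 on KLF4-labelled arrays. Ltf and Ngp fell 81.6-fold and 73.1-fold (SE at most 0.37, limma adjusted p at most 1.65e-04). In KLF4-labelled cells Mmp9, detected on 1 of 2 control arrays, rose 3.97-fold (limma adjusted p = 0.00496, 0.0614 with normexp) and 6 granule genes fell, with 3 without control replicate 1, 2 without KLF4 replicate 1, 2 without KLF4 replicate 2 and 2 with spike-in scaling. The order of the macrophage sums, control lowest and IRF8-labelled highest, is that of the means of Batf3, Zbtb46, Bcl6 and Relb. Tcf4, Id2 and Prdm1 had other orders. The part of a shift between these cell states in the differences of the 7 factors was not tested.

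Lymphoid markers bear on Bcl6 and Prdm1, which are best known from B cells. Of 12 B and plasma cell markers 5 were tested, and Vpreb1, a part of the pre-B cell receptor, fell 2.08-fold in IRF8-labelled cells (limma adjusted p = 0.00186). That was 20% of those tested, beside 35.0% lower over all genes. In KLF4-labelled cells Vpreb1 and Cd22 passed as lower (limma adjusted p = 0.0158 and 0.0427), and neither did with spike-in scaling (0.275 and 0.867). Ms4a1, Ebf1 and Jchain were not well above background on any array. The sum of the 12 was 1.35 and 1.53 on control arrays, 1.22 and 1.10 on IRF8-labelled arrays and 1.07 and 1.06 on KLF4-labelled arrays. Of 13 T and NK cell markers 7 were tested, and 2 rose and 2, Lck and Cd3d, fell in IRF8-labelled cells. These were 28.6% each, near the 26.2% higher and 35.0% lower of all genes tested. Il7r, the receptor for interleukin-7, rose at least 173-fold and Gata3, a factor of T helper cells, at least 5.00-fold (limma adjusted p = 7.77e-06 and 6.16e-05), while Cd3g, Ncr1, Eomes and Tbx21 were not well above background on any array. In KLF4-labelled cells Il7r and Gata3 also passed as higher and Cd3d as lower (limma adjusted p = 4.55e-05, 0.00107 and 0.0310). Gata3 and Cd3d lost these calls with normexp (0.408 and 0.277). The sum of the 13 was 8.13 and 9.53 on control arrays, 12.5 and 12.7 on IRF8-labelled arrays and 7.90 and 7.88 on KLF4-labelled arrays.

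The factors fall into few shapes over the 6 arrays. Batf3, Zbtb46, Bcl6 and Relb had the order IRF8-labelled, KLF4-labelled and control in their means, Id2 and Prdm1 the order IRF8-labelled, control and KLF4-labelled, and Tcf4 the order control, IRF8-labelled and KLF4-labelled. Neighbours that did not pass the test were KLF4-labelled and control for Zbtb46 and Prdm1 and the transduced groups for Relb and Tcf4. After each gene was centred on its mean, the root mean square difference over the 6 log2 values was smallest between Zbtb46 and Id2, at 0.388, followed by Id2 and Prdm1 at 0.709 and Batf3 and Bcl6 at 0.796. It was largest between Tcf4 and Bcl6, at 3.39.

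Among 12767 named genes ranked by the same measure, the most alike to Batf3 were Rasa4, a Ras GTPase-activating protein, at 0.118, Prl2c5, a proliferin, at 0.143, and the membrane protease gene Adam8 at 0.155. Rasa4 rose by log2 6.10 and 3.12 against control, beside 5.89 and 3.05 for Batf3. Zbtb46 was most like Cpt1c, a carnitine palmitoyltransferase, at 0.074, then BC028528 and the deubiquitinase gene Usp35. Id2 was most like Acss1, a mitochondrial acetyl-CoA synthetase, at 0.094, then Trerf1 and the toll-like receptor relative Cd180. Bcl6 was most like Pgbd5 at 0.230, then Sirpb1a and Tmem268, with log2 differences of 7.37 and 3.72 for Pgbd5. Prdm1 was most like the growth factor relative Fgf13 at 0.159, then Abca9 and the tetraspanin gene Tspan13. Relb was most like Tnni2, a troponin subunit, at 0.125, then Pdlim4 and the small GTPase gene Rras, and Tcf4 was most like Bex2 at 0.043, then Tent5a and Ier5l. Measures that rest on 6 arrays, and for dim genes such as Prdm1 on values below background, describe these arrays and no more.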

How the data were processed

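RNA of 6 cultures, 2 per group, was labelled with Cy3 and hybridised to one-colour Agilent arrays of 62976 spots. Per the file headers, Feature Extraction 10.7.3.1 made the deposited intensity values, the background-subtracted processed signal of each spot. From these, log2 intensity minus the array's 75th percentile was computed, 75 probes with outlier flags and all control spots were left out, and 26762 probes were matched by accession to RefSeq genes (GRCm38.p6). Each gene was represented by its brightest probe and tested if some group had it well above background on both of its arrays. A gene detected in a single group thus entered the test through the group where it was high, and counts of rises include such genes. limma 3.58.1 (R 4.3.3) fitted all 6 arrays with 3 residual degrees of freedom and Benjamini-Hochberg adjustment, and second probes were fitted in a table of 17380 probes. The fit was tested on simulated data.

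Replicate numbers mark the independent experiments and the slides, and same-numbered arrays deviated together from their group means (correlations 0.282, 0.321 and 0.391), so a fit with this number as a block was run beside the main one. Nothing in the labels ties arrays to separate cultures beyond this, and p-values measure only the spread between these arrays. Other scalings, background correction, filters, probe rules and leaving out each array were tried; normexp (offset 50) used the median signals, because the array tables read here have no column of mean signals.

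The 7 genes and all lists were chosen with earlier results of these data known. Named were all 7 genes, Irf8, Klf4, per list up to 4 genes with the largest called difference (2 for lists of other cell types), and the 3 genes most like each factor; of 2 reference genes, Gapdh and Actb, neither passed in any comparison. Results for some genes are not reported here.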

Additional observations from a re-analysis of the deposited data

How the results depend on the processing

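Of the 21 differences of the 7 factors (7 genes in 3 comparisons), 15 kept direction and side of the threshold under every alternative run, 21 in all but 20 for Bcl6 and Prdm1, which were not tested among genes above background on all arrays, and 413 of 435 recomputed values did so. The genes called in KLF4-labelled against control cells, 2138, were 887 with spike-in scaling, 987 with normexp, 965 without the filter on dim probes, 1395 with only the 2 groups compared, 6316 with the replicate block, and 879 to 1395 without 1 array. Spike-in scaling gave 4623 calls instead of 8100 in IRF8-labelled against control cells, where it moved the median of all genes to -0.25, and 2719 instead of 6669 between the transduced groups. The block gave 10010 and 9057 calls there. The factors called in KLF4-labelled cells were 3 with spike-in scaling and 3 to 4 without 1 array, and between the transduced groups 3 when only genes above background on all 6 arrays were tested, because fewer were tested. With the block Tcf4 also passed between the transduced groups (limma adjusted p = 0.0284), and it changed no other call of the 7 factors. Uncalled differences turned sign: Zbtb46 in KLF4-labelled cells to -0.013 with normexp, Relb between the transduced groups to -0.061 with median scaling, -0.057 with spike-in scaling and -0.024 to 0.18 without 1 array, and Tcf4 there to -0.12 with the mean of its probes. The share of calls that were higher was 64.5% in KLF4-labelled against control cells and 87.8% with median scaling, 89.4% with spike-in scaling and 37.4% with the block. Between the transduced groups it was 45.1% and 35.1% with median scaling. Except where stated, the cause was not tested. Probes near background, such as that of Prdm1, give bounds.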
